A study of Mus musculus with 15 samples.

Results

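The proteasome genes of tumor-associated macrophages (TAMs) are described here, apart from the catalytic subunits of the immunoproteasome. Members were taken by symbol: every row whose symbol opens with Psm, a letter from a to g and a digit, leaving out Psmb8, Psmb9, Psmb10 and pseudogenes marked -ps. The rule found 47 of the 55335 genes in the table, and it used no measured value. In all, 44 of the 47 had a mean of at least 1 FPKM (fragments scaled to transcript length in kilobases and to the mapped fragments of the sample) over the samples and were tested, among 11419 genes tested.

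TAMs had been sorted by flow cytometry from orthotopic hepatocellular carcinoma (HCC) in the liver of C57BL/6 mice, grown from Hepa1-6 cells, a mouse hepatoma line. The tumor cells were control cells, cells overexpressing miR-144 or cells overexpressing miR-451a, and each group held 5 samples, which are called control, miR-144 and miR-451a below. The miRNAs were thus overexpressed in the tumor cells and not in the sorted cells, and the rows for Mir144 and Mir451a are listed at 0 in all 15 samples, so the table holds no check of the overexpression. The labels give no age, sex, batch or date, and nothing says whether a sample was 1 mouse or a pool. The study states fewer replicates for its sequencing of TAMs than the samples labelled per group, and how the 2 relate is not given, so p-values measure only the spread between these samples, which may be technical.

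The proteasome is the protease that degrades ubiquitin-tagged proteins. Its core particle is a stack of alpha and beta rings with the active sites on the inner face of the beta rings, and its regulatory particle recognizes tagged proteins, removes the tag and threads the unfolded protein into the core. Interferon induces the immunoproteasome subunits that replace the catalytic ones, which alters the peptides offered on MHC class I, and in macrophages both forms are present together.

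Promoters are shown first for members that the results below turn on: the catalytic subunit genes Psmb6 and Psmb5, the regulatory particle genes Psmd8 and Psmd14, and Psmg4, an assembly chaperone gene whose level moved the other way. Each runs from 250 bases before to 50 bases after the transcription start, is read 5′ to 3′ on the gene's strand and comes from RefSeq on GRCm38.p6. Capitals mark matches on either strand to the core of the antioxidant response element, to which the Nrf factors bind (TGACNNNGC), to the CCAAT box bound by NF-Y, or to the gamma-activated site of STAT factors (TTCNNNGAA).
Psmb6 (chr11:70525107-70525406, plus strand): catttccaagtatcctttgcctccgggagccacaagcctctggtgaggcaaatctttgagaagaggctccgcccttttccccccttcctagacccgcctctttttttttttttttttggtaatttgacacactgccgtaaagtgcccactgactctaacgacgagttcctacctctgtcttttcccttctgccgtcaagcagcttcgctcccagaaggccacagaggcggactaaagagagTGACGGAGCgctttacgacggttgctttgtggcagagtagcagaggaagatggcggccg
Psmb5 (chr14:54617946-54618245, minus strand): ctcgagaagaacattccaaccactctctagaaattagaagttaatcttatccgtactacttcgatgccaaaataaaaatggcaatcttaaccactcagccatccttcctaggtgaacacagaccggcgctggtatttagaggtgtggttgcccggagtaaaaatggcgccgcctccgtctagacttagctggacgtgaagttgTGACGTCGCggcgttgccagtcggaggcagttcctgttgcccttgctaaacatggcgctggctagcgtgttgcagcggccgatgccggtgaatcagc
Psmd8 (chr7:29180624-29180923, minus strand): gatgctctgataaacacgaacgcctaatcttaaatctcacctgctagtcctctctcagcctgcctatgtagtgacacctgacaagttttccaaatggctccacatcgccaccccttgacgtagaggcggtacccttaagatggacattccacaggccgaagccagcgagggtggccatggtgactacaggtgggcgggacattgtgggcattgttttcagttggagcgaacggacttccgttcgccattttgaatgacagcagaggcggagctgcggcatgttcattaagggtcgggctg
Psmd14 (chr2:61711444-61711743, plus strand): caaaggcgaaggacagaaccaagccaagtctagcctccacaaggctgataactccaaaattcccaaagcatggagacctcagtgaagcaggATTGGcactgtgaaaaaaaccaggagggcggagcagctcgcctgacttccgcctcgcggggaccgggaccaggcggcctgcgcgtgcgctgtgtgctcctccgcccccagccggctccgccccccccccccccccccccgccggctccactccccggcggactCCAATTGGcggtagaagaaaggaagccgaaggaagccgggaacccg
Psmg4 (chr13:34162714-34163013, plus strand): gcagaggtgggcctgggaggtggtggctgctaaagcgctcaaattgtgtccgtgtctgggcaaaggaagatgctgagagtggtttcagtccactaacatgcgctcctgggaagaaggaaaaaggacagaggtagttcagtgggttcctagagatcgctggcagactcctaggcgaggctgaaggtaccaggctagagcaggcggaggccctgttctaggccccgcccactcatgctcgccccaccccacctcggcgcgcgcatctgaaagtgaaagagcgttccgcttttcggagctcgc
Of the 47 members, 39 had an entry among the RefSeq promoters, and Psmb1, Psmb2, Psmb7, Psmc3, Psmd3, Psmd7, Psma8 and Psmg2 had none. The TGACNNNGC core was found in 6 of the 39 (15.4%), against 14.0% of all 27025 genes with a promoter entry. Psmb6 held it from 9 bases before the start and Psmb5 from 47 bases before the start, and the other 4 were Psmc6, Psmd12, Psmd9 and Psme4. The CCAAT box was found in 14 members (35.9%, against 41.1% of all genes) and TTCNNNGAA in 2, Psmd2 and Psmg1 (5.13%, against 9.55%). The GC box of Sp1 (GGGCGG, not capitalized) was found in 22 members (56.4%, against 38.2%). In the sequences shown, the only capitalized matches that overlap are neighbouring CCAAT boxes on opposite strands of Psmd14. These matches are descriptions of the windows.

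The identity of the sorted cells was checked before the results. Genes of the macrophage list were high in all samples, with Adgre1, which encodes the sorting marker F4/80, at 137 ± 4.96 FPKM in control, 361 ± 24.7 in miR-144 and 354 ± 19.6 in miR-451a (mean ± SD, n = 5 as for all values below). The list itself moved with the groups: its sum over 13 rows, with 2 rows for Itgam, was 10855 to 11802 FPKM in control, 19275 to 20887 in miR-144 and 19206 to 20086 in miR-451a. The hepatocyte and hepatoma list summed to 109.6 to 145 FPKM in control, 127 to 160.0 in miR-144 and 125 to 167 in miR-451a. Of its 8 genes, 5 with Alb among them were listed at 0 in every sample and 7 stayed below 1 FPKM, so that the sum was nearly all that of Trf, the transferrin gene. Cd3e of T cells was listed at 0 in every sample, and the summed levels of NK cell, neutrophil, erythroid and dendritic cell markers stayed at or below 1.31 FPKM. The T cell list summed to 1.25 to 1.63 FPKM in control and 5.32 to 9.51 in the overexpression groups through Cd4, the B cell list to 0.138 to 0.379 and 1.11 to 1.75, and the endothelial list to 3.70 to 4.30 and 4.68 to 5.94. Fibroblast and stellate cell markers moved as well: their sum over 6 genes was 106 to 131 FPKM in control, 141 to 209 in miR-144 and 180 to 231 in miR-451a. Proliferation markers summed over 10 genes to 78.6 to 90.7, 58.6 to 61.4 and 58.6 to 62.8 FPKM, and the fall of the sum was chiefly that of Pcna. Of the 9 tested, Pcna, Mki67 and Ccnb1 fell in both comparisons, whereas Cdk1, Aurkb and Top2a rose in both and Ccnb2 in miR-451a. The part of these lists in the values below was not tested. In bulk samples of this kind, fewer cells of a type and less RNA per cell cannot be told apart.

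Samples 3 and 4 of each group stood apart from samples 1, 2 and 5, which was seen in the data and has no counterpart in the labels. Mertk, a macrophage receptor gene, was at 44.1 to 45.6 against 36.5 to 38.8 FPKM in control, 70.3 to 71.7 against 52.6 to 58.2 in miR-144 and 69.3 to 70.2 against 55.3 to 59.4 in miR-451a. Cd4 was higher and Cd14 lower in samples 3 and 4 of every group, and such a gap in the same direction in all 3 groups was found for 520 of the 11419 tested genes (4.55%). Psmd2, a scaffold subunit gene, was the one member among them, lower in samples 3 and 4. All 27 members past the threshold in each comparison with control had the same sign in samples 1, 2 and 5 alone and in samples 3 and 4 alone. The 27 had been selected in a fit of these same samples, so the shared sign is a description and no separate support.

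In control TAMs the 44 tested members ranged from Psmd9 at 3.14 ± 0.354 to Psmb6 at 96.2 ± 4.32, which was followed by Psmd8 at 86.6 ± 4.39, Psmb5 at 64.9 ± 1.996 and Psmd2 at 63.9 ± 0.740. Psmb6 and Psmd8 overlapped with each other and were set apart from the third, Psmb5, whereas Psmb5 and Psmd2 did not differ beyond their spread. The assembly chaperones lay at the low end, with control means of 3.14 to 14.8 FPKM. In the miR-144 samples Psmb6 was no longer first: Psmd8 led at 57.5 ± 4.54 FPKM, above Psmc1 at 53.7 ± 1.84 and Psma6 at 53.1 ± 2.70, and these 3 did not differ beyond their spread. FPKM is set per length of transcript, so levels of different genes can be placed side by side.

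The 3 untested members were barely present. Psma8, an alpha subunit of the testis, was at 0.280 to 0.704 FPKM over the 15 samples. Psmc3ip, which shares the symbol prefix but encodes a recombination cofactor and not a proteasome subunit, was at 0.251 to 0.732 FPKM. Psmb11, the catalytic subunit of thymic cortical epithelium, was listed at 0 in 13 samples and reached 0.0115 FPKM, under the level that 3 fragments would give (0.0234 to 0.0455 FPKM).

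The members were then compared between each overexpression group and control, to see whether the protease of these macrophages changed with the miRNA in the tumor cells. Both comparisons use the same 5 control samples and are therefore not independent. Of the 44 members, 21 were lower and 6 higher in miR-144 than in control at an adjusted p under 0.05 (limma, Benjamini-Hochberg over all 11419 genes). Lower members were thus 47.7% and higher members 13.6%, whereas over all tested genes 20.1% were lower and 47.1% higher. In miR-451a, 21 members were lower and 6 higher, against 20.3% of all genes lower and 48.1% higher. The median difference of the members on the log2(FPKM + 1) scale was -0.09 in miR-144 and -0.11 in miR-451a, and that of all tested genes was 0.13 and 0.14.

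Differences on this scale are used throughout and understate the change of genes near 1 FPKM. Past the threshold, 2 members fell and 1 rose by at least 0.5 in miR-144, against 7.67% and 15.1% of all tested genes, and 3 fell and 1 rose in miR-451a, against 914 lower and 1880 higher of the 11419 genes. The member that rose in each was Psme2b, whose level cannot be taken apart from that of Psme2, as given below. The counts at this minimum depended on the scaling. After median centring 5 fell and 1 rose in each comparison. Of all 11419 genes, 1225 then fell and 1183 rose in miR-144, and 1305 and 1243 in miR-451a. With quantile normalization 3 fell and 1 rose in miR-144 (all genes, 1105 and 1227). In miR-451a 2 fell and 1 rose (all genes, 1157 and 1311). After rescaling to TPM 1 fell and 2 rose in miR-451a (all genes, 867 and 2853). The samples of the 2 groups did not overlap for 17 lower and 6 higher members in miR-144, against 16.0% and 37.9% of all tested genes, and for 19 lower and 4 higher members in miR-451a, against 16.4% and 38.8%. Summed over all 47, the members were 1193 to 1237 FPKM in control, 1037 to 1095 in miR-144 and 1034 to 1064 in miR-451a, or 0.394% to 0.408%, 0.361% to 0.374% and 0.360% to 0.375% of all FPKM in a sample.

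These counts depend on the scaling. In the table as deposited, more of all genes rose than fell. Centring each sample on its median gene lowered all differences by 0.13 in miR-144 and by 0.14 in miR-451a. The members then split into 37 lower and 2 higher in miR-144, with 30.7% of all genes lower and 30.8% higher, and into 38 lower and 3 higher in miR-451a, with 31.8% and 31.3%. With quantile normalization 29 were lower and 6 higher in miR-144 (all genes, 29.3% and 32.0%), and 31 were lower and 4 higher in miR-451a (30.0% and 32.9%). Rescaling to TPM moved the values the other way. It left 17 lower and 8 higher in miR-144 (all genes, 16.4% and 53.7%) and 17 lower and 7 higher in miR-451a (16.3% and 55.6%), and the median difference of the members became -0.03 and -0.04. Relative to the median of all genes, 38 of the 44 members lay below it in each comparison. The 6 above it were Psme2b, Psmd5, Psmg4, Psma6, Psme1 and Psmf1.

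**Figure D1:**
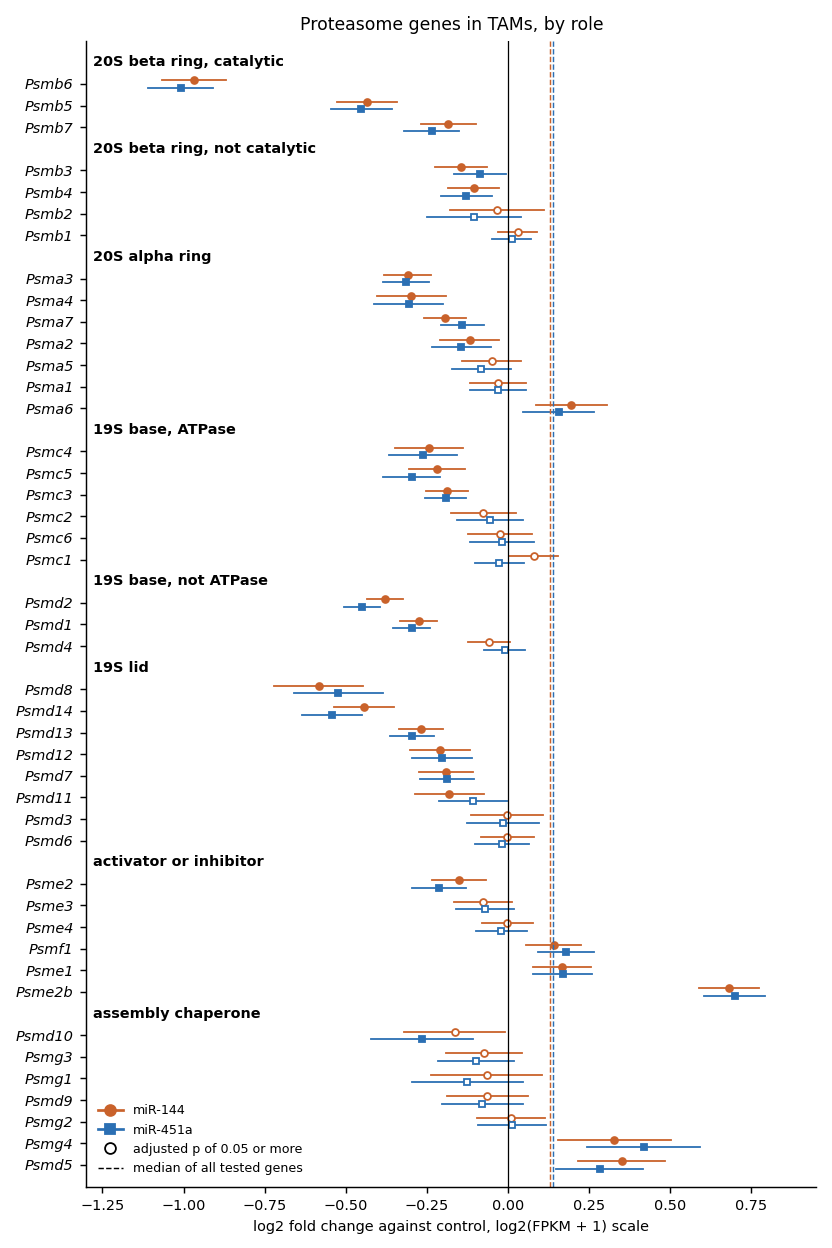
Difference of each of the 44 tested members against control on the log2(FPKM + 1) scale (x axis), grouped by role, with 95% confidence intervals from limma (n = 5 per group). Circles are miR-144 and squares miR-451a, filled where the adjusted p is under 0.05, and dashed lines mark the median of all 11419 genes. Psmb6 lies farthest to the left and Psme2b farthest to the right.

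All 3 constitutive catalytic subunits fell in both groups. Psmb6 carries the caspase-like site and lies on chromosome 11 (GRCm38, 70525367 to 70527858, plus strand). Its promoter is the first shown above. Its level was 95.9, 93.1, 97.997, 102 and 91.4 FPKM in control, 52.2, 48.7, 46.8, 49.3 and 46.4 in miR-144 and 43.6, 45.2, 47.4, 51.1 and 49.3 in miR-451a. Every overexpression sample was far below every control sample, and the fall was the largest of the members, by 0.97 on the log2 scale in miR-144 (SE 0.05, adjusted p = 8.27e-11) and by 1.01 in miR-451a (SE 0.05, adjusted p = 4.73e-11).

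Psmb5 carries the chymotrypsin-like site, the chief target of proteasome inhibitors, and lies on chromosome 14 (54614119 to 54618022, minus strand). It was at 66.8, 61.8, 66.5, 65.1 and 64.4 FPKM in control, 52.3, 48.4, 45.1, 44.6 and 48.7 in miR-144 and 46.3, 46.3, 46.5, 45.9 and 51.03 in miR-451a. The groups did not overlap, and it fell by 0.43 in miR-144 (SE 0.04, adjusted p = 4.09e-07) and by 0.45 in miR-451a (SE 0.04, adjusted p = 2.52e-07). Of the 50-base stretches in the longest Psmb5 transcript, 57.1% also occur in other genes, chiefly Gm3375, so its level is uncertain where reads could be split between them. The share was 1.74% for Psmb6 and 0 for Psmb7.

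Psmb7 carries the trypsin-like site. It was at 16.3, 16.3, 15.99, 16.6 and 16.4 FPKM in control, 14.99, 14.2, 14.1, 13.8 and 14.2 in miR-144 and 13.8, 13.1, 13.7, 15.3 and 12.8 in miR-451a. These groups did not overlap either, although the fall was smaller, by 0.18 (adjusted p = 0.000766) and by 0.24 (adjusted p = 8.28e-05).

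The immunoproteasome subunits that replace them are no members, and their levels are given because the ratios turn on them. Psmb9, which takes the place of Psmb6, was at 6.96, 6.16, 8.09, 5.9998 and 7.91 FPKM in control, 11.2, 11.8, 11.5, 11.3 and 11.6 in miR-144 and 9.23, 9.20, 11.5, 11.7 and 12.1 in miR-451a. It rose by 0.64 in miR-144 (adjusted p = 8.60e-06) and by 0.55 in miR-451a (adjusted p = 4.14e-05). Psmb8, which takes the place of Psmb5, went from 21.6 ± 1.81 FPKM in control to 25.8 ± 2.02 and 26.6 ± 1.80, a rise of 0.24 (adjusted p = 0.00408) and 0.29 (adjusted p = 0.00114). After median centring that rise was 0.11 (adjusted p = 0.165) and 0.14 (adjusted p = 0.0694). Psmb10, which takes the place of Psmb7, moved the other way from its partners: it was at 76.2 ± 2.81, 38.6 ± 2.56 and 39.1 ± 2.93 FPKM and fell by 0.96 (adjusted p = 3.49e-10) and 0.95 (adjusted p = 4.05e-10).

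**Figure D2:**
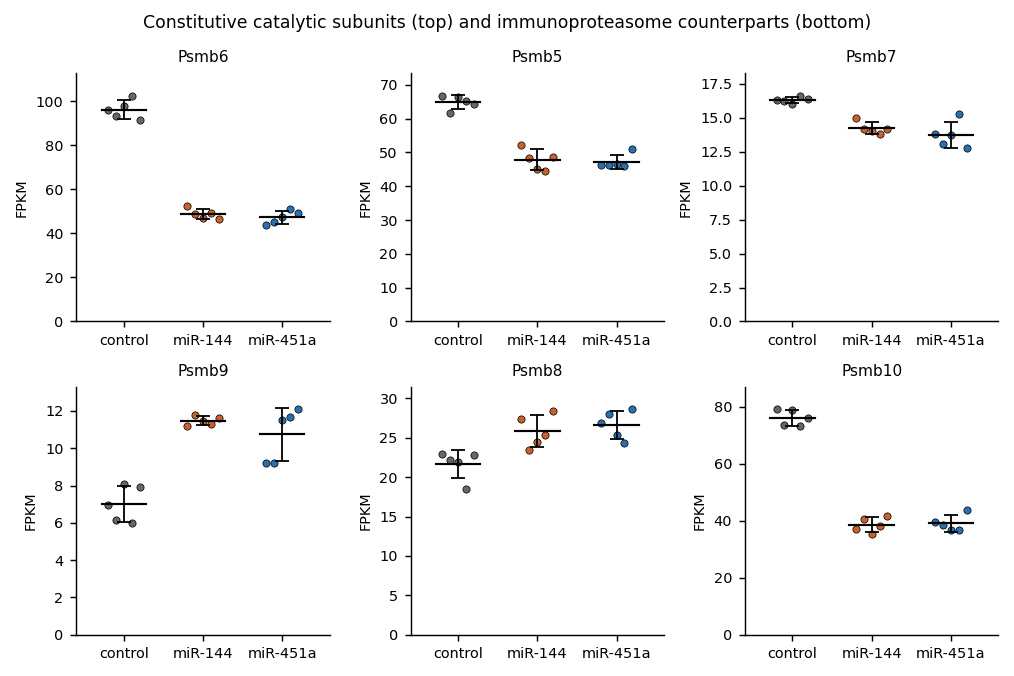
FPKM per sample of Psmb6, Psmb5 and Psmb7 and, below each, of the immunoproteasome subunit that replaces it. Points are the 5 samples of each group, the bar is their mean and the whiskers 1 SD. All 3 subunits of the upper row are lower in the overexpression groups, whereas below them Psmb9 and Psmb8 are higher and Psmb10 is lower.

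A ratio within a sample does not depend on how the sample was scaled apart from the pseudocount, so the log2 ratio of each pair was compared as well, with two-sided exact permutation tests and adjustment over the 12 tests of 4 ratios and 3 comparisons. The ratio of Psmb9 to Psmb6 was -3.61, -3.72, -3.44, -3.89 and -3.37 in control, -2.12, -1.96, -1.94, -2.04 and -1.91 in miR-144 and -2.12, -2.18, -1.95, -2.04 and -1.94 in miR-451a. All overexpression samples were above all control samples, with a difference of 1.61 in miR-144 (SE 0.10, exact permutation p = 0.00794, adjusted p = 0.0136) and 1.56 in miR-451a (SE 0.10, exact permutation p = 0.00794, adjusted p = 0.0136). That p is the smallest that 5 samples against 5 can give.

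The ratio of Psmb8 to Psmb5 was -1.55 ± 0.13 in control, -0.87 ± 0.10 in miR-144 and -0.80 ± 0.07 in miR-451a, and the differences were 0.68 and 0.74. The ratio of Psmb10 to Psmb7 was 2.16 ± 0.07 in control, 1.38 ± 0.11 in miR-144 and 1.44 ± 0.18 in miR-451a, and the differences were -0.78 and -0.71. No overexpression sample overlapped with control in either ratio, and each of these differences had the exact permutation p of 0.00794 and adjusted p of 0.0136. The pairs did not shift together. Immunoproteasome transcripts gained on their counterparts at the caspase-like and chymotrypsin-like positions and lost at the trypsin-like position, where Psmb10 still exceeded Psmb7 in every sample.

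**Figure D3:**
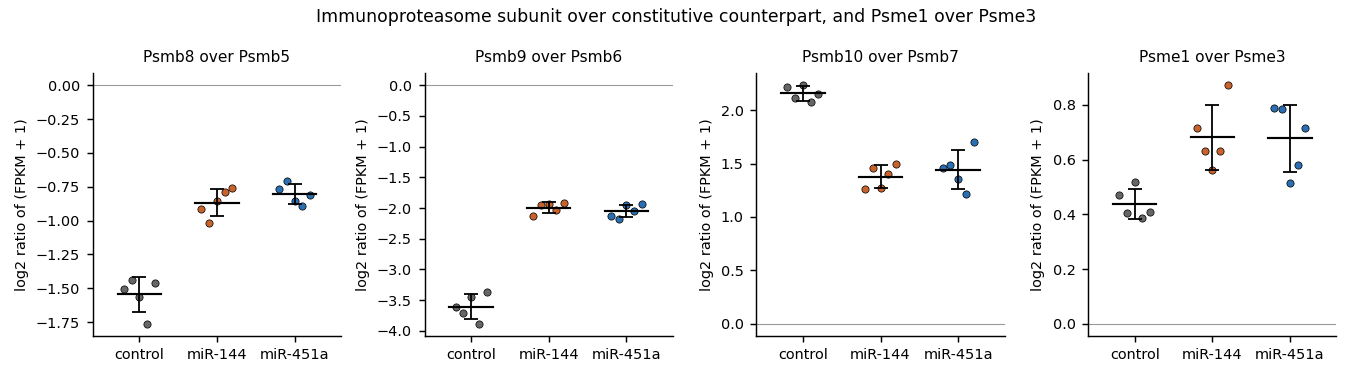
Log2 ratio of (FPKM + 1) per sample for 3 immunoproteasome subunits over their constitutive counterparts and for the activator gene Psme1 over Psme3. Points are the 5 samples of each group, the bar is the mean and the whiskers 1 SD. Only the ratio of Psmb10 to Psmb7 is lower in the overexpression groups, and the other ratios are higher.

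Among the remaining subunits of the core particle the falls reached 0.31 on the log2 scale. Of the 4 beta subunits without an active site, Psmb3 and Psmb4 fell in both comparisons, by 0.15 and 0.11 in miR-144 and by 0.09 and 0.13 in miR-451a. The adjusted p of Psmb3 in miR-451a was 0.0486 and is close to the threshold. Psmb1 differed by 0.03 and 0.01 and Psmb2 by -0.03 and -0.11, without passing the test, with adjusted p of 0.178 to 0.740. After rescaling to TPM Psmb1 passed as higher, by 0.10 and 0.09 (adjusted p = 0.00918 and 0.0138), whereas after median centring every core subunit other than Psma6 passed as lower in both comparisons.

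Of the 7 alpha subunits, which form the gate of the core, Psma2, Psma3, Psma4 and Psma7 fell in both comparisons. Psma3 fell by 0.31 in each and Psma4 by 0.30 and 0.31, and 22.0% and 25.6% of their 50-base stretches occur in other genes. Psma6 was the only alpha subunit that rose. It was at 43.4, 49.8, 43.6, 48.1 and 46.7 FPKM in control, 57.1, 50.8, 53.3, 50.4 and 53.97 in miR-144 and 56.96, 50.7, 51.02, 52.2 and 47.7 in miR-451a. It was higher in all miR-144 samples than in control, whereas miR-451a and control overlapped, and the rise was 0.19 (adjusted p = 0.00355) and 0.16 (adjusted p = 0.0136). It came to 0.06 (adjusted p = 0.280) and 0.01 (adjusted p = 0.836) after median centring. Psma1 and Psma5 did not pass the test, with differences between -0.03 and -0.08.

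Some of these smaller falls depended on the scaling, the settings of the fit or single samples. After rescaling to TPM, Psma2, Psmb3 and Psmb4 did not pass in either comparison and Psma7 did not in miR-451a (adjusted p = 0.0636 to 0.859). In miR-144, Psma2 missed the threshold without control 2 or 4 or miR-144 sample 3 or 5 (adjusted p = 0.0535 to 0.0684) and Psmb4 without miR-144 sample 2 or 3 (0.0531 and 0.0549). In miR-451a, Psmb3 missed it without control 2, 3, 4 or 5 or miR-451a sample 2, 3 or 5 (0.0693 to 0.119), without the filter on low values (0.0712) and without the trend of variance on mean (0.0573).

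In the regulatory particle no member passed the test as higher. Its base holds 6 ATPases that unfold the substrate, and of these Psmc3, Psmc4 and Psmc5 fell in both comparisons, by 0.19, 0.24 and 0.22 in miR-144 and by 0.19, 0.26 and 0.30 in miR-451a. Psmc1, Psmc2 and Psmc6 did not pass the test, with adjusted p of 0.0618 to 0.722. With quantile normalization Psmc2 passed as lower in both comparisons, by -0.16 and -0.14 (adjusted p = 0.00599 and 0.0105). The call of Psmc1 in miR-144 depended on the setting: its difference of 0.08 (adjusted p = 0.0618) passed as a rise after rescaling to TPM (0.15, adjusted p = 0.00193), with quantile normalization (0.12, adjusted p = 0.0083) and without control 2 or miR-144 sample 4 (adjusted p = 0.0182 and 0.0443). After median centring all subunits of the regulatory particle other than Psmc1 passed as lower in miR-144, and all of them did in miR-451a.

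Of the 3 other base subunits, the scaffolds Psmd2 and Psmd1 fell and the ubiquitin receptor Psmd4 did not pass the test. Psmd2 was at 63.98, 63.6, 63.5, 63.2 and 65.1 FPKM in control, 48.2, 51.2, 47.9, 47.7 and 49.3 in miR-144 and 48.2, 46.7, 45.1, 45.8 and 46.8 in miR-451a. The groups did not overlap, and its fall of 0.38 (SE 0.03, adjusted p = 5.46e-09) and 0.45 (SE 0.03, adjusted p = 7.22e-10) had the smallest error of all members. It was 0.37 and 0.44 in samples 1, 2 and 5 and 0.40 and 0.47 in samples 3 and 4. Other genes, chiefly Gm5422, share 26.1% of its 50-base stretches. Psmd1 fell by 0.28 and 0.30. Psmd4 was at 23.7, 22.4, 23.8, 22.6 and 24.02 FPKM in control, 22.6, 21.8, 21.6, 23.6 and 22.1 in miR-144 and 22.5, 23.4, 23.05, 23.2 and 23.5 in miR-451a, and these groups overlapped (adjusted p = 0.0918 and 0.778). In miR-144 it passed as lower with quantile normalization (adjusted p = 0.00608) and without miR-144 sample 4 (adjusted p = 0.0293).

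The lid holds the enzyme that removes ubiquitin before degradation, Psmd14, on chromosome 2 (61711694 to 61800376, plus strand). It was at 18.6, 21.02, 18.2, 19.2 and 19.6 FPKM in control, 14.4, 14.1, 13.2, 13.8 and 14.3 in miR-144 and 12.6, 14.2, 12.5, 13.3 and 12.4 in miR-451a. It was lower in all overexpression samples than in any control sample, by 0.44 in miR-144 (SE 0.04, adjusted p = 3.06e-07) and by 0.54 in miR-451a (SE 0.04, adjusted p = 2.91e-08).

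Psmd8, another lid subunit on chromosome 7 (29174188 to 29180701, minus strand), was at 93.3, 84.1, 88.6, 84.9 and 82.2 FPKM in control, 58.4, 63.7, 50.9, 57.1 and 57.6 in miR-144 and 64.5, 53.7, 57.9, 57.6 and 66.7 in miR-451a. The groups were again apart, with a fall of 0.58 (SE 0.06, adjusted p = 1.02e-06) and 0.52 (SE 0.06, adjusted p = 3.22e-06), and its transcript shares no 50-base stretch with another gene. Psmd7, the partner of Psmd14, fell by 0.19 in each comparison, and Psmd12 and Psmd13 fell in each by 0.20 to 0.30. Psmd11 fell by 0.18 in miR-144, and its difference of -0.11 in miR-451a did not pass the test (adjusted p = 0.0624), although it did with quantile normalization, with only the 2 groups compared and without miR-451a sample 1 (adjusted p = 0.00026, 0.0419 and 0.0366). Between the overexpression groups Psmd11 differed by 0.07 (adjusted p = 0.981). Psmd3 and Psmd6 differed by -0.0025 to -0.019 and did not pass the test in either. With quantile normalization Psmd6 fell in miR-451a (adjusted p = 0.0335).

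Of the 6 activator and inhibitor genes, Psme1, Psme2b and Psmf1 rose in both comparisons, Psme2 fell in both, and Psme3 and Psme4 did not pass the test. Psme1 and Psme2 encode the partners of the interferon-inducible activator PA28, and their genes lie side by side on chromosome 14. Psme1 was at 31.6, 30.97, 30.3, 31.3 and 31.1 FPKM in control, 36.9, 34.7, 32.5, 33.5 and 37.5 in miR-144 and 35.8, 36.01, 32.1, 34.8 and 36.5 in miR-451a. It was above all control samples in both groups, and the rise was 0.17 (adjusted p = 0.00281) and 0.17 (adjusted p = 0.00252). Relative to the median of all genes it was 0.04 and 0.03, and after median centring it did not pass (adjusted p = 0.528 and 0.642).

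Psme2 was at 49.2, 51.3, 46.5, 47.9 and 49.5 FPKM in control, 47.98, 42.3, 40.98, 44.1 and 44.6 in miR-144 and 41.5, 43.2, 41.8, 42.3 and 41.3 in miR-451a. It fell by 0.15 (adjusted p = 0.00301), with overlap between miR-144 and control and an adjusted p of 0.0587 after rescaling to TPM, and by 0.21 (adjusted p = 0.000168), without overlap. Psme2b, a copy of Psme2 with a single transcript on chromosome 11, was at 20.6, 20.6, 20.8, 19.4 and 18.7 FPKM in control, 31.4, 35.1, 33.4, 30.6 and 33.2 in miR-144 and 33.5, 35.3, 31.8, 31.3 and 33.7 in miR-451a. It rose by 0.68 (adjusted p = 2.35e-09) and 0.70 (adjusted p = 1.66e-09), the largest rise of the members. As 59.3% of the 50-base stretches of Psme2 and 69.3% of those of Psme2b occur in each other or a further gene, neither level can be taken on its own. Summed over both, the level was 68.9 ± 1.94 FPKM in control, 76.7 ± 2.15 in miR-144 and 75.1 ± 1.95 in miR-451a, with the lowest overexpression sample at 73.6 and the highest control sample at 71.9.

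Psme3, which encodes the nuclear activator PA28 gamma, was at 22.5, 23.1, 20.9, 23.7 and 23.2 FPKM in control, 22.1, 22.1, 21.7, 21.3 and 20.04 in miR-144 and 20.3, 20.5, 22.2, 22.9 and 21.8 in miR-451a. The groups overlapped, and it did not pass the test (adjusted p = 0.121 and 0.149). It passed as lower in both after median centring, with quantile normalization (adjusted p = 0.0213 and 0.0209) and without control 3 (adjusted p = 0.0329 and 0.0416). The ratio of Psme1 to Psme3 was 0.44 ± 0.06 in control, 0.68 ± 0.12 in miR-144 and 0.68 ± 0.12 in miR-451a. It differed by 0.24 in miR-144 (exact permutation p = 0.00794, adjusted p = 0.0136), without overlap, and by 0.24 in miR-451a (exact permutation p = 0.0159, adjusted p = 0.0238), where 1 miR-451a sample lay within the range of control. The differences were 0.31 and 0.33 in samples 1, 2 and 5 and 0.14 and 0.10 in samples 3 and 4.

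Psme4, the activator PA200, was at 14.1, 14.5, 14.1, 14.4 and 13.6 FPKM in control, 13.2, 14.999, 14.8, 13.7 and 13.9 in miR-144 and 14.6, 14.4, 13.5, 13.8 and 13.3 in miR-451a. It did not pass the test (adjusted p = 0.964 and 0.641), but passed as lower after median centring (adjusted p = 0.00446 and 0.00103) and, in miR-451a, with quantile normalization (adjusted p = 0.0307). Psmf1, which encodes the inhibitor PI31, was at 3.43, 3.54, 3.18, 3.25 and 3.30 FPKM in control, 3.67, 4.002, 3.95, 3.74 and 3.56 in miR-144 and 4.01, 3.94, 4.17, 3.62 and 3.83 in miR-451a. All overexpression samples were above control, by 0.14 (adjusted p = 0.00577) and 0.18 (adjusted p = 0.000985), and the rise came to 0.01 and 0.03 after median centring and to -0.00191 and 0.02 with quantile normalization.

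Of the 7 assembly chaperones, Psmg4 and Psmd5 rose in both comparisons and Psmd10 fell in miR-451a. This too depended on the scaling, since Psmg1, Psmg2, Psmg3, Psmd9 and Psmd10 passed as lower in both comparisons after median centring and with quantile normalization. Psmg1 to Psmg4 encode the PAC chaperones of the alpha ring. Psmg4 was at 9.79, 10.5, 9.56, 9.83 and 7.26 FPKM in control, 12.2, 11.5, 12.4, 11.1 and 12.7 in miR-144 and 11.3, 12.2, 14.7, 12.98 and 12.9 in miR-451a. It was higher in all overexpression samples than in control, by 0.33 (SE 0.08, adjusted p = 0.00236) and 0.42 (SE 0.08, adjusted p = 0.000325). Control sample 5 was the lowest by a wide margin, and after median centring the rise in miR-144 was 0.19 (adjusted p = 0.0600).

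Its partner Psmg3 was at 3.63, 3.84, 3.18, 4.04 and 3.60 FPKM in control, 3.53, 3.28, 3.23, 3.48 and 3.58 in miR-144 and 3.005, 3.70, 3.49, 3.09 and 3.46 in miR-451a, with adjusted p of 0.252 and 0.122. Psmg1 was at 4.73, 3.99, 4.31, 4.88 and 4.70 FPKM in control, 4.87, 3.69, 4.24, 4.07 and 4.55 in miR-144 and 3.37, 4.13, 3.79, 5.003 and 4.10 in miR-451a, with adjusted p of 0.485 and 0.176. The groups overlapped widely in both of these genes. In miR-451a Psmg3 passed as lower without control 3 and Psmg1 without miR-451a sample 4 (adjusted p = 0.0298 and 0.0316). Psmg2, the partner of Psmg1, was at 3.64, 4.12, 4.30, 3.68 and 4.02 FPKM in control, 3.995, 3.72, 4.19, 4.08 and 3.90 in miR-144 and 4.34, 4.04, 3.63, 3.77 and 4.19 in miR-451a, with adjusted p of 0.889 and 0.835.

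Psmd5, Psmd9 and Psmd10 encode chaperones that bind the ATPases while the base is built. Psmd5 was at 3.14, 3.37, 2.75, 3.10 and 3.55 FPKM in control, 4.39, 4.33, 4.54, 4.14 and 4.21 in miR-144 and 4.36, 4.21, 4.36, 4.22 and 3.30 in miR-451a. It rose by 0.35 in miR-144 (adjusted p = 0.000172), without overlap, and by 0.28 in miR-451a (adjusted p = 0.00103), where sample 5 fell within control and quantile normalization gave 0.12 (adjusted p = 0.0652). Psmd10, also known as gankyrin, was at 14.2, 16.1, 13.4, 14.9 and 15.2 FPKM in control, 13.4, 12.4, 11.1, 14.2 and 14.3 in miR-144 and 12.2, 13.1, 10.3, 12.6 and 12.4 in miR-451a. It fell by 0.27 in miR-451a (adjusted p = 0.00469) and differed by -0.16 in miR-144 (adjusted p = 0.0592), where it passed as lower without control 3 or miR-144 sample 4 or 5 (adjusted p = 0.0343, 0.0391 and 0.0359). Between the overexpression groups it differed by -0.10 (adjusted p = 0.983). Psmd9 was at 3.45, 2.55, 3.12, 3.35 and 3.25 FPKM in control, 2.81, 2.88, 3.11, 3.11 and 2.86 in miR-144 and 2.64, 2.92, 2.80, 3.02 and 3.19 in miR-451a, with wide overlap (adjusted p = 0.353 and 0.243). Without control 2, the lowest control sample, it passed as lower (adjusted p = 0.0366 and 0.0198).

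**Figure D4:**
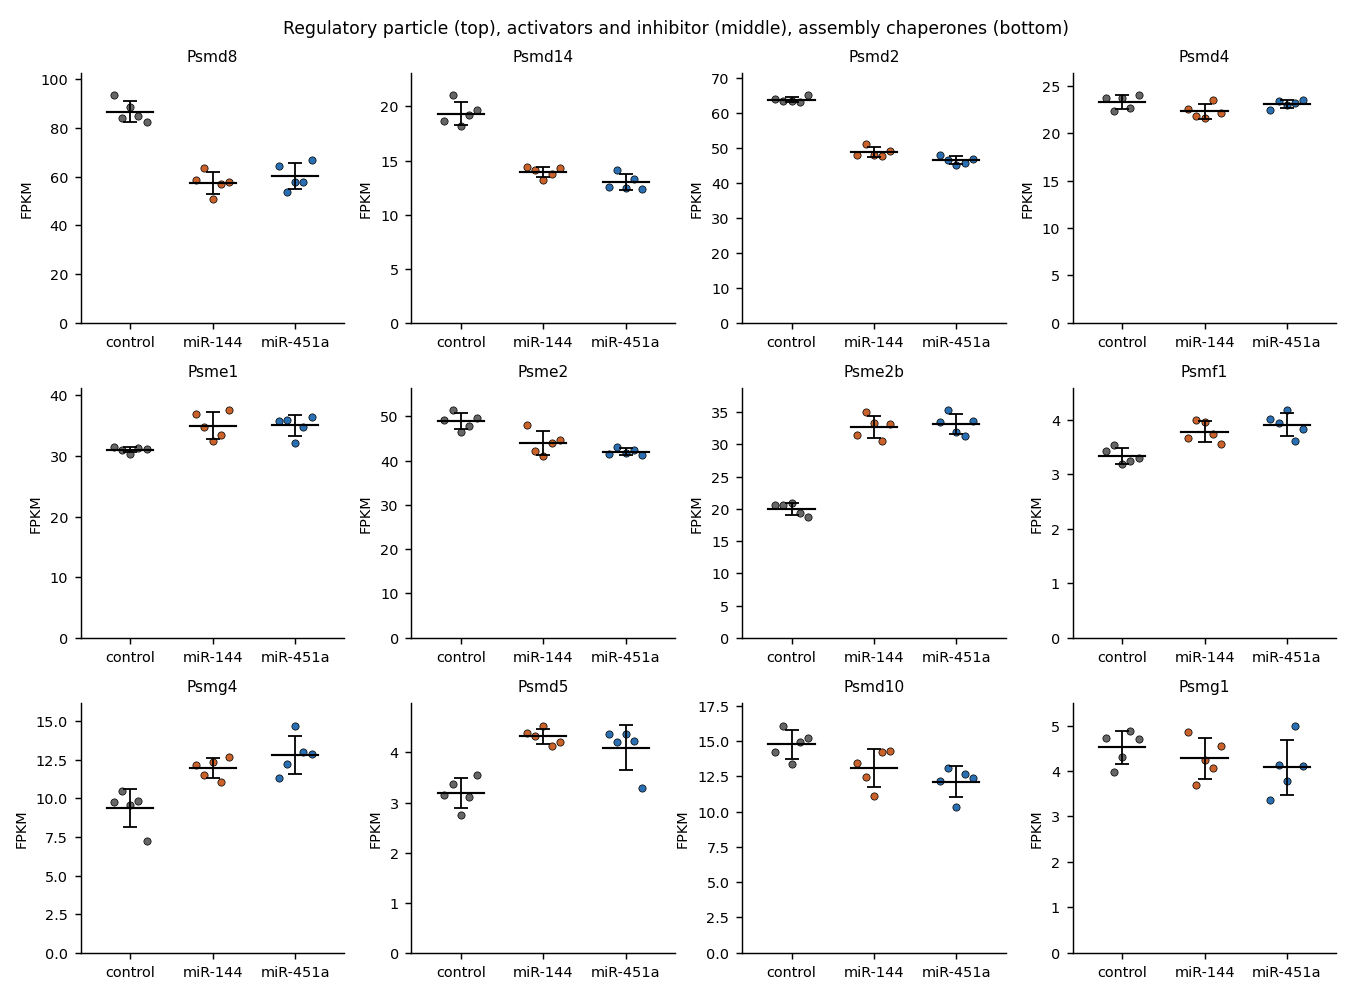
FPKM per sample of 12 members outside the core particle: subunits of the regulatory particle (upper row), activators and inhibitor (middle row) and assembly chaperones (lower row). Points are the 5 samples of each group, the bar is the mean and the whiskers 1 SD. Psmd8, Psmd14 and Psmd2 are lower in all overexpression samples, whereas Psme1, Psme2b, Psmf1 and Psmg4 are higher in all of them.

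The overexpression groups were next set against each other, to see whether the miRNAs differed. No member and no gene passed the test (0 of 11419, 0%, limma). At an unadjusted p under 0.05 there were 596 genes (5.22%) and 3 members, Psmc1, Psmd14 and Psmd2, each lower in miR-451a, by 0.10, 0.10 and 0.07 on the log2 scale, with adjusted p of 0.916, 0.946 and 0.946. Psmc1 was the only member whose samples did not overlap, against 0.849% of all genes in either direction. The largest member difference was 0.10 in size, and the lowest and highest limits of the members' 95% intervals were -0.258 and 0.263. The 4 ratios differed by -0.05 to 0.07, with exact permutation adjusted p of 0.413 to 0.976.

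Within groups the members varied together only weakly, though somewhat more than all tested genes. The deviations of 2 members from their group means correlated by a median r of 0.09 over 946 pairs, against 0.01 for pairs of all tested genes. These are correlations across 15 samples, in each of which all members share one library and its depth. Some samples were high or low across many members. Control 2 held the highest control value for 19 of the 44 (43.2%), against 22.7% of all tested genes. Control 3 held the lowest for 22 (50%), against 27.1%. The highest value of the miR-144 group was in sample 1 for 18 (40.9%), against 19.7%. The depth implied by the smallest steps in the table was 15.5 to 30.2 M fragments per sample, with group medians of 23.8, 22.4 and 21.3.

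Of 12 proteasome genes that lack a Psm symbol, 4 were lower and 2 higher in miR-144 (all tested genes, 20.1% and 47.1%), and 3 lower and 2 higher in miR-451a (20.3% and 48.1%). Zfand5, which encodes a zinc finger activator of the proteasome, fell from 14.5 ± 1.35 FPKM in control to 6.31 ± 0.407 and 6.09 ± 0.482, by 1.08 and 1.12 on the log2 scale (adjusted p = 6.64e-10 and 3.92e-10), more than any member. Zfand2a, an arsenite-inducible partner of the proteasome, fell by 0.90 in miR-144 (adjusted p = 0.0105), where sample 1 was at 7.60 FPKM and the others at 27.1 to 31.6. Without sample 1 the fall was 0.53 (adjusted p = 9.41e-07). In miR-451a no sample overlapped with control, and the difference was -0.57 (adjusted p = 0.0826). The fit of all groups uses the same spread for every group, with miR-144 sample 1 included. Zfand2a passed as a fall when only the 2 groups were compared, without the miR-144 samples (adjusted p = 1.06e-06). It also passed after median centring (adjusted p = 0.0373) and in samples 3 and 4 alone (adjusted p = 0.00128). Under the remaining alternatives, which left out only control or miR-451a samples in turn, the adjusted p was 0.0792 to 0.349.

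The proteasome deubiquitinase gene Usp14 fell by 0.21 and 0.25. The ubiquitin receptor gene Adrm1 fell by 0.21 in miR-144, which missed the threshold after rescaling to TPM (adjusted p = 0.0524), and differed by -0.14 in miR-451a (adjusted p = 0.059), which passed after median centring, with quantile normalization and without control 4 or miR-451a sample 1. The core assembly factor gene Pomp fell by 0.16 in miR-451a, and missed the threshold after rescaling to TPM (-0.08, adjusted p = 0.227) and without control 2 or 4 or miR-451a sample 3 or 5 (adjusted p = 0.0551 to 0.0655). In miR-144 it differed by -0.13 (adjusted p = 0.0587), and passed after median centring, with quantile normalization, with only the 2 groups compared and without control 1 or miR-144 sample 4. Fbxo7, whose product binds PI31, rose by 0.17 and 0.21, and Akirin2, which encodes a carrier of proteasomes into the nucleus, by 0.15 and 0.15, both close to the median of all genes. Neither passed after median centring (adjusted p = 0.137 to 0.986) or with quantile normalization (adjusted p = 0.153 to 0.839).

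Factors that control proteasome genes were measured too. Of 10 tested, 5 rose and 2 fell in each comparison with control, a share of higher genes near that of all tested genes. Nfe2l1 encodes Nrf1, which raises proteasome genes when the protease is short. Its level was 12.8, 39.1, 10.1, 38.4 and 12.6 FPKM in control, 9.78, 13.8, 9.13, 10.5 and 11.02 in miR-144 and 10.1, 10.95, 9.36, 7.58 and 9.90 in miR-451a. Control samples 2 and 4 were high and the other control samples lay near the overexpression groups. Its fall of 0.77 (adjusted p = 0.0416) and 0.94 (adjusted p = 0.0161) came to 0.52 without control 2 and 0.53 without control 4 in miR-144 (adjusted p = 0.117 for each) and to 0.69 without the one or the other in miR-451a (adjusted p = 0.0442 and 0.0449). In miR-144 the call was lost as well without miR-144 sample 1, 3, 4 or 5 (adjusted p = 0.0617 to 0.0813), without the filter on low values (0.09), after rescaling to TPM (0.0558) and with only the 2 groups compared (0.0828). In samples 1, 2 and 5 alone it did not pass in either comparison (adjusted p = 0.160 and 0.0936), nor did it in samples 3 and 4 alone (0.221 and 0.150).

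Ddi2 and Ngly1, whose products process Nrf1 into its active form, rose from 16.1 ± 0.446 to 25.7 ± 0.511 and 26.8 ± 0.682 FPKM and from 2.01 ± 0.182 to 3.46 ± 0.265 and 3.51 ± 0.350. On the log2 scale the rise was 0.65 and 0.70 for Ddi2 and 0.56 and 0.58 for Ngly1, without overlap. Nfe2l2, which encodes Nrf2 of the oxidative stress response, was between 64.5 and 70.1 FPKM in control and between 95.4 and 102 in the overexpression groups, a rise of 0.54 (adjusted p = 2.63e-10) and 0.54 (adjusted p = 2.40e-10). Among the small Maf partners of both factors, Mafg rose by 0.30 and 0.24 and Maff fell by 0.53 and 0.56. In miR-451a Mafg missed the threshold after median centring (adjusted p = 0.0608). Nfyb, a subunit of NF-Y, rose by 0.26 and 0.26, which came to 0.12 and 0.12 after median centring (adjusted p = 0.123 and 0.134) and to 0.09 and 0.08 with quantile normalization (adjusted p = 0.24 and 0.278).

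Upstream of the proteasome, 2 of 6 ubiquitin and E1 genes rose and 1 fell in each comparison, where 47.1% and 48.1% of all tested genes rose and 20.1% and 20.3% fell. The ubiquitin gene Ubb went from 462 ± 22.01 to 394 ± 12.9 and 384 ± 23.7 FPKM, or by 0.23 and 0.27, and the ubiquitin fusion gene Rps27a rose by 0.38 and 0.31. In miR-144 the fall of Ubb missed the threshold with quantile normalization (adjusted p = 0.0521). The E1 gene Uba6 rose by 0.18 and 0.15, and did not pass after median centring (adjusted p = 0.402 and 0.95) or with quantile normalization (adjusted p = 0.504 and 0.967). Of 9 shuttle and segregase genes, 3 rose and 2 fell in each comparison, beside the shares of all genes just given. Vcp, the segregase that extracts proteins for degradation, fell from 81.2 ± 1.18 to 63.99 ± 2.10 and 63.7 ± 2.001 FPKM, by 0.34 and 0.35. Its cofactor gene Nploc4 fell by 0.10 in miR-144, and missed the threshold after rescaling to TPM (-0.04, adjusted p = 0.437) and without control 1, 4 or 5 or miR-144 sample 2 or 3 (adjusted p = 0.0546 to 0.0734). The shuttle gene Rad23b fell by 0.10 in miR-451a, or -0.02 after rescaling to TPM (adjusted p = 0.535). Both passed as lower in the other comparison too after median centring and with quantile normalization. The shuttle gene Ubqln2 rose by 0.23 and 0.25, while Ubqln1 and the cofactor gene Nsfl1c rose by 0.07 to 0.13, which is below the median of all genes. Of these rises, that of Nsfl1c turned negative after median centring and with quantile normalization, as did that of Ubqln1 after median centring, where it passed as a fall in miR-451a (adjusted p = 0.0151), and, in miR-451a, with quantile normalization. Ubqln2 missed the threshold in miR-144 after median centring (adjusted p = 0.0578). Ubqln1 missed it without several of the samples left out in turn (adjusted p up to 0.0794 in miR-144 and 0.111 in miR-451a) and, in miR-451a, without the trend of variance on mean (0.0536) and with only the 2 groups compared (0.0651).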

How the data were processed

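RNA of TAMs was sequenced on an Illumina HiSeq instrument in 15 samples, 5 per group, grouped and numbered by the sample labels. The authors deposited FPKM per gene and sample. The submitters' processing notes name FastQC 0.11.2, STAR and StringTie without their roles, and the genome build and annotation are not given in the sources used here. FPKM divides by all fragments of a sample, so a few abundant genes that rise lower the others. Counts were not used, and depth (15.5 to 30.2 M fragments) was inferred from the smallest increments among low FPKM. Depth sets the counting error of the low members, and all errors given are the spread between samples.

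FPKM were transformed to log2(FPKM + 1) and filtered at a mean of 1 FPKM, which left 11419 genes. The 3 groups were fitted together with limma 3.58.1 in R 4.3.3, with a trend of variance on mean, and p-values were adjusted over all genes by the Benjamini-Hochberg method. Confidence levels are 95%. The 4 log2 ratios were compared with two-sided exact permutation tests in scipy 1.17.1, adjusted over 12 tests. The fit was tested on simulated data for miR-144 versus control, in which 11219 of 11419 genes were unchanged. Of 50 genes each, it called 50 with a log2 change of 1, 43 with 0.5, 32 with 0.25 and 17 with -0.25. There were 9 false calls, and the fit thus missed many changes of 0.25. Far more genes passed in the measured data, so these shares need not hold there. Alternatives were pseudocount 0.1, no filter, a mean of 5 FPKM, rescaling to TPM, median centring, quantile normalization, a replicate block, no trend, only the 2 groups compared, a minimum log2 difference of 0.5 and leaving out each sample.

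Identifiers were matched to GENCODE M21 on GRCm38 (99.7% of all genes, all 47 members), which gave coordinates, 1-based, and the shared 50-base stretches of longest transcripts. Promoters came from RefSeq on GRCm38.p6. The members and lists were chosen with earlier results of these data known. Every member is accounted for. Values per sample are given for catalytic subunits, Psmd14, Psmd4, activators, the inhibitor and chaperones, and for the 4 members with the largest rise and fall among those past the threshold without overlap. For the related lists, values are given for genes past the threshold. Psmd2, Nfe2l1 and the sample of Zfand2a were added after their values were seen, as were the sum of Psme2 and Psme2b and the fits with a term for samples 3 and 4, without them and with them alone.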

Additional observations from a re-analysis of the deposited data

Results flagged for a closer look

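Samples that lay far from the other 4 of their group (Dixon's test, critical value 0.71) were found in 7 of 153 gene or ratio groups, where chance alone gives 7.65. Psma7 was at 20.1 FPKM in miR-144 sample 1 and at 18.4 to 18.6 in the others. Psmb2 was at 45.2 in miR-451a sample 1, with the next at 40.2. Psmb5 was at 51.0 in miR-451a sample 5, with the next at 46.5. Psmc6 was at 17.0 in miR-144 sample 5, with the next at 15.2. Psmd5 was at 3.30 in miR-451a sample 5, below 4.21 in the nearest sample, and was the only miR-451a sample within the range of control. Psmg4 was at 7.26 in control sample 5, below 9.56 in the nearest. Psmb8 was at 18.5 in control sample 4, below 21.9 in the nearest, and that sample also had the lowest log2 ratio of Psmb8 to Psmb5, -1.76. None of these was removed.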

How the results depend on the processing

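A minimum log2 difference of 0.5 left 3 members in miR-144 (1 higher, 2 lower) and 4 in miR-451a (1 higher, 3 lower). After median centring 2 members were higher and 37 lower in miR-144 (all genes, 30.8% and 30.7%). In miR-451a 3 were higher and 38 lower, 41 in all (all genes, 31.3% and 31.8%). Pseudocount, filter, trend, TPM, the 2 groups alone and quantile normalization kept each count of members past the threshold, with no minimum difference, within 1.5 times, and no member passed between the overexpression groups under any alternative. Leaving out 1 sample gave 25 to 30 members in miR-144 (6 to 7 higher, 19 to 23 lower), 26 to 28 in miR-451a (6 higher, 20 to 22 lower) and 0 between the overexpression groups. Of all 11419 genes, 5136 to 5267 were then higher and 2188 to 2273 lower in miR-144. In miR-451a 5291 to 5448 were higher and 2219 to 2292 lower.

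Psmb1 turned negative and passed the test after median centring (-0.10 in miR-144, -0.13 in miR-451a) and, in miR-451a, quantile normalization (-0.0662). Psmg2 did so after centring (-0.13 and -0.13) and quantile normalization (-0.13 and -0.14). Psmf1 turned to -0.00191 in miR-144 with quantile normalization. Nsfl1c turned to -0.0353 and -0.0180 with centring and to -0.0241 and -0.00659 with quantile normalization, Ubqln1 to -0.0592 and -0.0758 (the latter past the threshold, adjusted p = 0.0151) with centring and, in miR-451a, -0.00626 with quantile normalization, and Uba6 to -0.00211 in miR-451a with quantile normalization. Both settings lower the median difference of all genes by construction. A further 57 member values and 4 ratios changed sign while below the threshold both times.

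Same-numbered samples were not paired by the labels, and the correlations of their deviations were -0.13 to 0.11 between miR-144 and control (mean -0.01, other pairs 0.00312), 0.07 to 0.26 between miR-451a and control (0.14, other pairs -0.03) and -0.15 to 0.24 between the overexpression groups (0.10, other pairs -0.03). They were thus not all over 0.1 in any comparison, and 1, 3 and 4 of 5 samples correlated best with their own number. With the replicate block, 29 members passed in miR-144 (7 higher, 22 lower) and 26 in miR-451a (6 higher, 20 lower). Among all 11419 genes, 5408 were higher and 2303 lower in miR-144 with the block, and 5511 and 2348 in miR-451a. The block brought Psmc1 (higher, adjusted p = 0.04999) and Psmd10 (lower, 0.00708) past the threshold in miR-144 and, in miR-451a, Adrm1 and Nploc4 (lower, 0.0443 and 0.0252), while Psmb3 lost its call in miR-451a (0.0619). For the ratios, a sign-flip test over 5 pairs as the replicate block cannot go below p = 0.0625, so no ratio could pass: the differences against control stayed 0.68 and 0.74 for Psmb8 to Psmb5, 1.61 and 1.56 for Psmb9 to Psmb6, -0.78 and -0.71 for Psmb10 to Psmb7 (adjusted p = 0.0938 for each, sign-flip exact) and 0.24 and 0.24 for Psme1 to Psme3 (adjusted p = 0.0938 and 0.167, exact).

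With 1 sample left out, the ratio of Psmb8 to Psmb5 differed by 0.62 to 0.72 in miR-144, 0.69 to 0.77 in miR-451a and 0.02 to 0.09 between the overexpression groups. That of Psmb9 to Psmb6 differed by 1.54 to 1.67, 1.49 to 1.62 and -0.09 to -0.02, and that of Psmb10 to Psmb7 by -0.81 to -0.75, -0.78 to -0.66 and 0.00294 to 0.12. The ratio of Psme1 to Psme3 differed by 0.20 to 0.27, 0.21 to 0.28 and -0.03 to 0.04, and in miR-451a it missed the threshold without miR-451a sample 1, 2, 4 or 5 (exact permutation, adjusted p = 0.0635 each).

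The split of samples 3 and 4 from samples 1, 2 and 5 was chosen after seeing the data. With a term for it 29 members passed in miR-144 (7 higher, 22 lower), with Psmc1 and Psmd10 added, and 26 in miR-451a (6 higher, 20 lower), with Psmb3 lost. Among all 11419 genes, 5442 were higher and 2341 lower in miR-144 with this term, and 5571 and 2368 in miR-451a. In samples 1, 2 and 5 alone 26 passed in each (5 higher and 21 lower in miR-144, 4 higher and 22 lower in miR-451a). Among all 11419 genes there, 4551 were higher and 2008 lower in miR-144, and 4750 and 2079 in miR-451a. There Psma2 and Psmf1 lost their calls in miR-144, as did Psma6, Psmb3 and Psmd5 in miR-451a, while Psmd10 in miR-144 and Psma5 and Psme3 in miR-451a passed as lower. In samples 3 and 4 alone, with fewer samples, 17 passed in miR-144 (2 higher, 15 lower) and 16 in miR-451a (3 higher, 13 lower). Of all 11419 genes, 4200 were higher and 1781 lower in miR-144 in that fit, and 4308 and 1724 in miR-451a.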
